A study of Mus musculus with 7 samples.

Results

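Mini-oocytes are oocyte-like cells that form in culture when mouse embryonic stem cells (mESCs) are made to express oocyte transcription factors. The comparison described here sets 8F-mini-oocytes at day 21 against 4F-mini-oocytes at day 7, and covers 10655 of the 55364 genes listed by the authors. Gene symbols of predicted genes, miRNAs, RIKEN clones, small nucleolar RNAs and numbered pseudogenes were set aside, which left 21786 genes, and a gene was kept when at least 2 of the 4 libraries had at least 5 TPM (reads per gene length, set to a common sum across libraries). Of the genes kept, 8181 reached 5 TPM in all 4 libraries, 693 only in both 8F libraries, 786 only in both day 7 libraries and 995 in other combinations. Protein-coding genes made up 10424 of them. The genes nearest to the limit were Zfp202 just inside, with a second highest value of 5.00 TPM, and Hectd2 just outside, also at 5.00 TPM after rounding.

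RNA-seq was performed on 7 libraries of female mESC-derived cells, all from the parental line BVSC H18 with the strain label hybrid 129/C57BL6. 4F-mini-oocytes carry transgenes for the 4 factors Nobox, Figla, Tbpl2 and Lhx8, and 8F-mini-oocytes carry these and Stat3, Dynll1, Sub1 and Sohlh1, 8 factors in all. Each factor is fused to a destabilization domain, and Shield-1 in the medium stabilizes the fusion proteins. All groups were cultured with Y-27632, stem cell factor (SCF) and Shield-1, and Shield-1 was later left out of the fresh medium, after day 7 and before day 21. The day 7 group held 2 libraries of 1000 pooled 4F cells each, the 8F group 2 libraries of 10 pooled cells at day 21, and 3 libraries of 10 pooled 4F cells at day 21 served to separate the lines. Between the 8F and the day 7 libraries the set of factors, the pool size and the day all change, and their parts cannot be told apart. Between the 4F libraries of day 21 and day 7, the pool size and the day also change together. The 8F cells are also a separate line with an Npm2-mCherry reporter, and the labels do not say whether replicates came from separate inductions, so the p-values measure only the spread between these samples, which may be technical.

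Oocytes grow while they are arrested in the first meiotic division. During this growth they lay down the zona pellucida, secrete factors that act on the surrounding granulosa cells, store maternal mRNAs and proteins for the embryo, and acquire the proteins that keep and later release the meiotic arrest. The induced factors are regulators of this programme in the ovary: FIGLA, a basic helix-loop-helix protein, is known to activate the zona pellucida genes, and NOBOX, a homeodomain protein, activates genes of the growing oocyte such as Gdf9.

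About 9506126 and 12311475 reads on genes were estimated for the day 7 libraries and 18016437 and 17804982 for the 8F libraries, from the steps in which low TPM values rise. On a gene with 1 kb of exons, 3 reads then amount to 0.764 and 0.575 TPM at day 7 and to 0.515 and 0.531 TPM in the 8F samples, limits that cover counting error only because amplified reads are not independent molecules. The replicates were not equally alike: over the tested genes, the 8F pair had a Pearson correlation of 0.976 on the log2 scale and the day 7 pair 0.865, a description across genes that are not independent. The 10 highest genes held 28.5% and 31.8% of all TPM at day 7 against 12.7% and 14.0% in the 8F libraries. Among them was the noncoding RNA Rpph1, the RNA part of RNase P, at 65875 and 65638 TPM at day 7 and at 4939 and 5809.5 TPM in the 8F samples. The authors' table carries up to 9 decimals in the 5 columns of 4F libraries and up to 17 in the 2 columns of 8F libraries, so the way the values were written also changes with the line. The paper names 2 sequencing instruments with different read lengths and does not assign libraries to them. The part of the sequencing run in the differences between groups was not tested.

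The promoters of Zp3, Zar1 and Bmp15 are shown because these genes rose together in 8F-mini-oocytes and because FIGLA and NOBOX are known for motifs that can be looked for in them. Each sequence is the 250 bases before the annotated start in RefSeq (GRCm38.p6), written 5′ to 3′ on the strand of the gene, with CANNTG (the E-box) and TAATTA in capitals. TAATTG, a further homeodomain motif, occurred in none of the 3 windows on either strand.
Zp3, chr5:135979855-135980104, plus strand: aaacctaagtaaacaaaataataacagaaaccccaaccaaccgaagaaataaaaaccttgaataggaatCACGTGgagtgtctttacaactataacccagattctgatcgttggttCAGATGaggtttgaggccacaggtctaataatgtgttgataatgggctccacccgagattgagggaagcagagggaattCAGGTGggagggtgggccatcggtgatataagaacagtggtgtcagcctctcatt
Zar1, chr5:72581085-72581334, minus strand: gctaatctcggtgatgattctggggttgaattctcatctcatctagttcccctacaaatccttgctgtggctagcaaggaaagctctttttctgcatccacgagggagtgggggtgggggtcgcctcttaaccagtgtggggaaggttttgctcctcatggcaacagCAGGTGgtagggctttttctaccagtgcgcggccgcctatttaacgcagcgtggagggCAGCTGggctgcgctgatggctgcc
Bmp15, chrX:6320725-6320974, minus strand: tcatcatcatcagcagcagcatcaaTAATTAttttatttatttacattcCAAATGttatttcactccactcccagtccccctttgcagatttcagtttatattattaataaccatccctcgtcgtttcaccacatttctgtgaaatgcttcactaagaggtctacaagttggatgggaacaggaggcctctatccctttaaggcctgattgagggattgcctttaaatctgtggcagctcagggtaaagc
Zp3 held 3 E-boxes, which began 181, 134 and 55 bases before the start, Zar1 held 2, at 83 and 25 bases, and Bmp15 held 1 E-box at 201 bases and TAATTA at 225 bases. In windows of 300 bases, 250 before and 50 after the start, an E-box on either strand occurred in 72.3% of the 32851 promoters of the table, in 64.3% of those of genes that rose, in 63.9% of those that fell and in 63.1% of those not called. TAATTG occurred in 8.0% of all promoters, in 5.4% of those of genes that rose and in 5.3% of those that fell, and TAATTA in 5.3%, 2.9% and 2.3%. The motifs may overlap one another, a match is only a run of letters, and 8530 of the 10636 symbols had a promoter in the table. Zp1, Zp2, Gdf9 and Npm2 had no entry in it.

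The genes were tested on log2(TPM + 1) with limma, in a single fit of the 7 libraries, with Benjamini-Hochberg adjustment of the p-values across 21780 tested genes. A false discovery rate (FDR) of 0.05 was the threshold, and a log2 fold change on this scale understates the change of low genes. In 8F-mini-oocytes, 3692 of the 10655 genes rose and 1547 fell against day 7, so that 5239, or 49.2%, were past the threshold. Over all genes tested, 37.2% were past it, 24.2% higher and 13.0% lower in the 8F libraries. With 1 library left out, the count was between 2829, without replicate 2 of 8F, and 5292, and without replicate 1 of 8F it was 2937. The excess of rises depended on the scaling: 70.5% of the genes past the threshold rose, a share that was 54.6% when libraries were rescaled by the median of ratios, 52.9% with quantile normalization and 49.2% with limma's voom on the estimated reads. Over all tested genes, the median of the log2 fold changes was 0.24 on the TPM scale and between -0.05 and 0.00 under these scalings, so medians of gene lists are given relative to 0.24. The lists were counted within the 10655 genes, whose own median was higher, at 0.38 on the TPM scale. In the same direction under all 4 scalings, 2410 genes rose and 1537 fell. Among the 8181 genes at 5 TPM in all 4 libraries, 47.8% were past the threshold on the TPM scale, and among the other 2474 genes 53.7%. Genes that passed the filter through 1 group only had to differ, so the 49.2% is not read against the 37.2%. Counts of gene lists are to be read beside the shares over all genes tested. Genes in the lists that passed the filter through 1 group only, such as Nlrp9a and Krt18, could only be higher in that group. The change is plotted against the mean level, and on this scale genes of the lowest mean levels cannot show large changes.

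**Figure D1:**
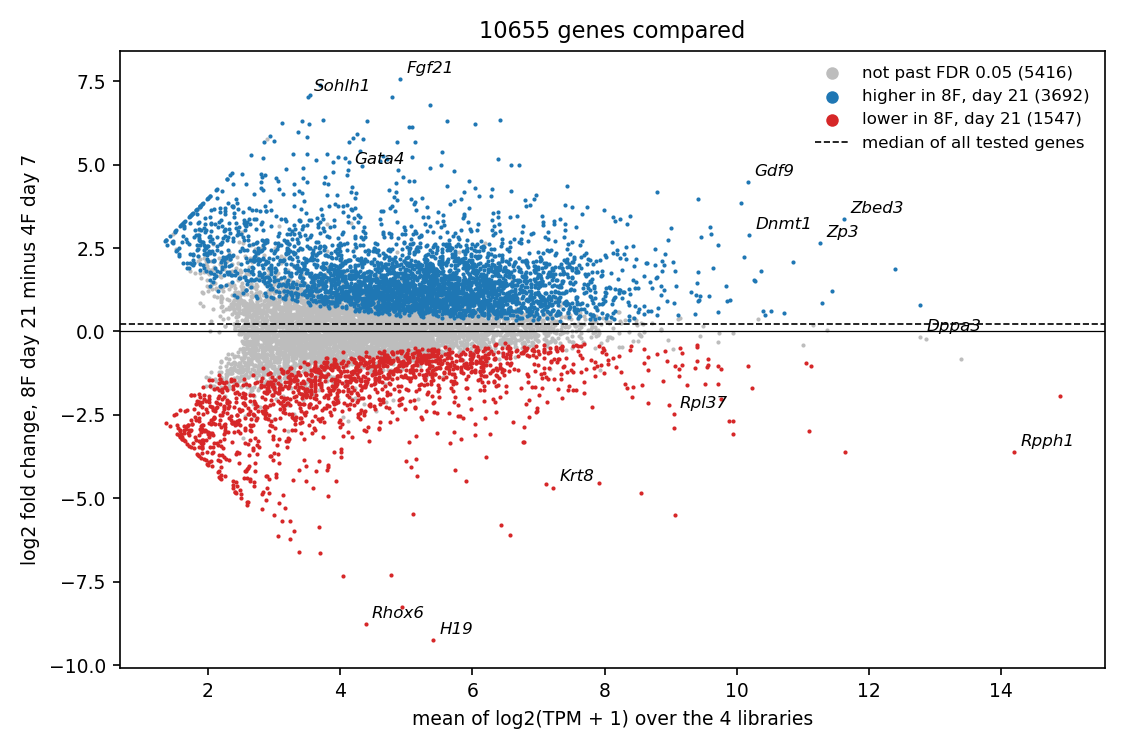
Each point is 1 of the 10655 genes, with the mean of log2(TPM + 1) over the 2 day 7 and 2 8F libraries on the x axis and the log2 fold change, 8F at day 21 minus 4F at day 7, on the y axis. Blue points are the 3692 genes that rose, red points the 1547 that fell (limma, FDR 0.05), and the dashed line is the median of all tested genes.

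The markers of oocyte growth were followed first, because the question of the comparison is which growth changes of the 4F line also hold in the 8F line. Of the 9 growth genes examined, Zp1, Zp2, Zp3, Gdf9, Npm2, Zar1 and Bmp15 rose in 8F-mini-oocytes under all 4 scalings and with every library left out in turn, and Dppa3 and Foxo3 were not past the threshold. Zp1, Zp2 and Zp3 encode the glycoproteins of the zona pellucida. Zp1 (chr19:10914287-10920632, mm10) was at 539 and 517 TPM at day 7 and at 1114 and 1093 TPM in the 8F samples, an increase of 1.06 in log2 units (adjusted p = 0.000699, standard error 0.105). Zp2 was at 1668 and 2012 TPM and then at 4301 and 4169 TPM, a log2 fold change of 1.21 (adjusted p = 0.00266). Zp3 was at 801 and 1207 TPM and then at 6220.5 and 6073 TPM, a log2 fold change of 2.64 (adjusted p = 0.000429). For all 3 genes, both 8F libraries lay above both day 7 libraries, and the 8F replicates differed less than the day 7 replicates.

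Gdf9 and Bmp15 encode growth factors through which the oocyte acts on granulosa cells. Gdf9 rose from 196 and 303 TPM to 5206 and 5621 TPM, 21.7-fold by the means (log2 fold change 4.47, standard error 0.234, adjusted p = 0.00013). Bmp15 rose from 23.5 and 31.6 TPM to 440.2 and 432 TPM, 15.8-fold (log2 fold change 3.95, adjusted p = 6.27e-05). Zar1, which encodes an RNA-binding protein that stores maternal mRNA, rose from 21.9 and 41.1 TPM to 499 and 465 TPM, 15.3-fold (log2 fold change 3.96, adjusted p = 0.000214). These 3 changes were far larger than the gap between the replicates of either group. Npm2, a histone chaperone of the egg, rose from 695 and 743 TPM to 2119 and 2053 TPM (log2 fold change 1.54, adjusted p = 0.000363). Dppa3, a maternal factor that protects methylation in the zygote, was at 7125 and 7804 TPM at day 7 and at 6906 and 6292 TPM in the 8F samples (log2 fold change -0.18, adjusted p = 0.487, 0.35 after quantile normalization). Foxo3, which restrains the activation of primordial follicles, was at 227 and 242 TPM and then at 283 and 294 TPM (log2 fold change 0.30, adjusted p = 0.191, -0.20 after quantile normalization). The groups overlapped for neither gene, but the direction of both turned with the scaling.

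**Figure D2:**
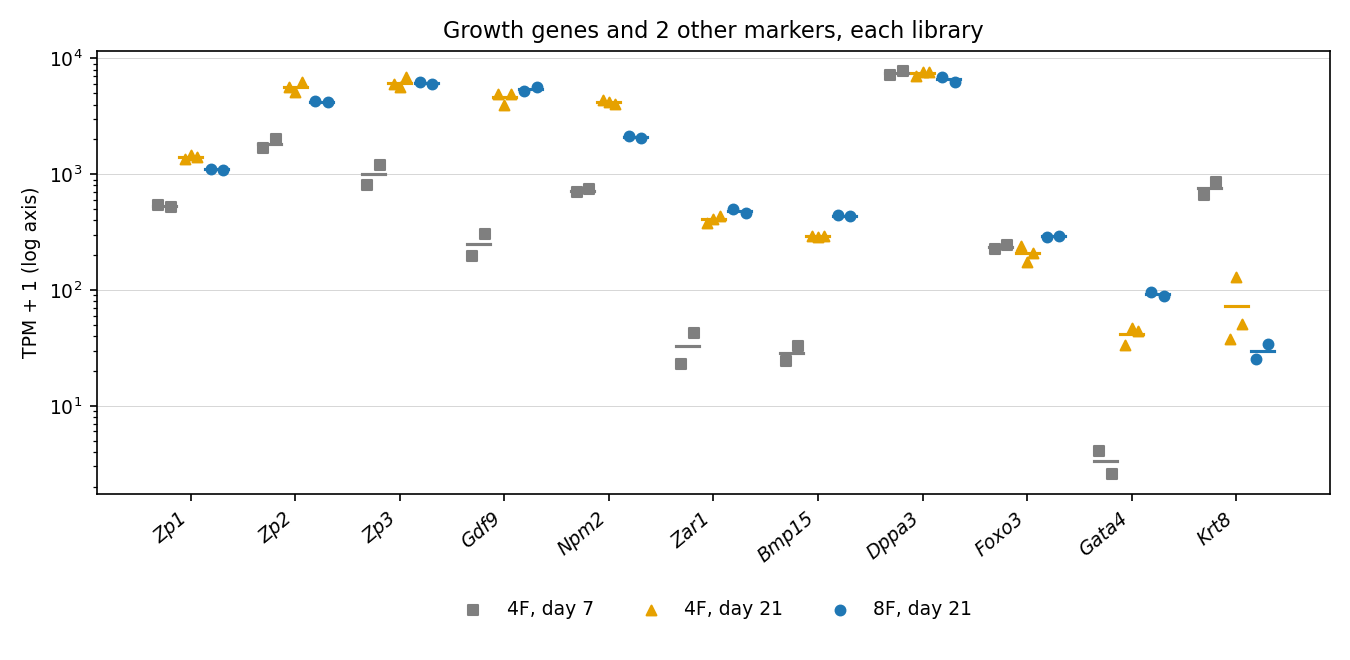
TPM + 1 (log axis) of the 9 growth genes, Gata4 and Krt8 in each of the 7 libraries, with a line at the group mean. Gdf9 lies at 196 and 303 TPM in the day 7 libraries (grey squares) and at 5206 and 5621 TPM in the 8F samples (blue circles), while Krt8 falls from 659.5 and 863 TPM to 24.4 and 33.2 TPM.

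The 4F line at day 21 shares the day 7 libraries with this comparison, so its values are set beside those of the 8F line without a test of likeness, and the lines were compared directly at day 21. In 4F-mini-oocytes at day 21, Zp1 was at 1415 ± 52.5 TPM (SD, n = 3), Zp3 at 6190.4 ± 611 TPM and Gdf9 at 4613 ± 573 TPM. Between the lines at day 21, Zp1, Zp2, Zp3, Gdf9, Zar1, Dppa3 and Foxo3 were not past the threshold, with the lowest adjusted p at 0.0754 for Zp1. Npm2 was lower in the 8F line, at 2119 and 2053 TPM against 4217 ± 165 TPM (SD, n = 3), a log2 difference of -1.01 (adjusted p = 0.00676), and Bmp15 was higher, at 440.2 and 432 TPM against 289 ± 3.63 TPM (log2 difference 0.59, adjusted p = 0.046). Without replicate 1 of 8F, the adjusted p was 0.0821 for Npm2 and 0.302 for Bmp15. The reporter of the 8F line was built on Npm2, and its part in the Npm2 value was not tested. The 4F line rose over day 7 by 2.55 on the log2 scale for Npm2 and by 3.36 for Bmp15, and for both genes all day 21 libraries of both lines lay above the day 7 libraries.

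Beyond these genes, the egg coat and fertilization list held 12 genes, of which 9 rose and 2 fell in the 8F line, in each case under all 4 scalings, with a median of 1.60 above that of all genes. The 4F line had 8 rises and 2 falls. Oosp1, which encodes an oocyte-secreted protein, rose from 65.0 and 131 TPM to 1120.2 and 839.7 TPM (log2 fold change 3.38, adjusted p = 0.000562). Oosp3, of the same family, was at 7.74 and 2.79 TPM and then at 72.6 and 56.9 TPM (log2 fold change 3.50, adjusted p = 0.0152, but 0.119 without replicate 1 of 8F). Cd9, the tetraspanin needed on the egg surface for sperm fusion, fell from 189.5 and 232 TPM to 115 and 119.9 TPM (log2 fold change -0.83, adjusted p = 0.00495). Plac1, known from the placenta, fell from 68.9 and 83.9 TPM to 15.7 and 14.2 TPM, and lay at 3.43 ± 2.03 TPM (SD, n = 3) in the 4F line. Its adjusted p against day 7 was 0.00628, but 0.0618 without replicate 2 of 8F. The egg membrane gene and the placental gene thus moved against the coat genes. With 1 library left out, between 7 and 9 genes of the list rose and 1 or 2 fell.

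The list of oocyte secreted factors and receptors held 15 genes, of which 6 rose and 3 fell, with a median of 0.25 above that of all genes. Over all genes tested, 24.2% rose and 13.0% fell, and the list was not tested as a set. Its rises were those of ligands and of Kit. Fgf8, a growth factor with which the oocyte controls metabolism in cumulus cells, rose from 0.566 and 2.13 TPM to 80.0 and 94.8 TPM (log2 fold change 5.31, adjusted p = 0.000154). Kit, the SCF receptor, rose from 37.3 and 61.0 TPM to 192 and 217 TPM (log2 fold change 2.07, adjusted p = 0.000996). Its falls were those of receptors: Bmpr1a went from 68.8 and 61.0 TPM to 29.1 and 31.3 TPM (log2 fold change -1.08), and Igf1r from 37.2 and 33.3 TPM to 17.2 and 17.1 TPM (adjusted p = 0.0044). In both lines 6 genes of this list rose, and in the 4F line 2 fell.

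All 15 genes of the list of the subcortical maternal complex and Nlrp genes rose in both lines. This complex lies under the membrane of the egg and is needed by the early embryo, and the Nlrp genes encode maternal proteins, several of them parts of it. Nlrp9a and 1 gene at 0 in both day 7 libraries passed the filter only through the 8F libraries, so the filter set their rise. The median was 3.13 above that of all genes, 13 of the 15 rose under all 4 scalings, and between 13 and 15 rose with 1 library left out. Nlrp9a rose from 0 and 4.95 TPM to 169 and 129 TPM (log2 fold change 5.93, adjusted p = 0.00182), and Nlrp2 from 0.944 and 11.5 TPM to 253 and 249.8 TPM (log2 fold change 5.68, adjusted p = 0.00193). The day 7 replicates of these genes were far apart relative to their level, replicate 2 being the higher. Zbed3 and Padi6 were picked after their values were seen. Zbed3, a part of the complex, rose from 788 and 1226 TPM to 9685 and 10654 TPM. Padi6, an abundant protein of the egg cytoplasm, rose less, from 4826 and 5815 TPM to 9256 and 9099.5 TPM (log2 fold change 0.79, adjusted p = 0.0263). Unique mapping can lower the values of Nlrp genes that have near copies.

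Among 20 genes of maternal mRNA storage and decay, 13 rose and 4 fell in the 8F line and 13 rose and 2 fell in the 4F line, and 10 rose and 4 fell under all 4 scalings. With 1 library left out, between 9 and 13 rose and between 1 and 4 fell. Eif4e1b, an oocyte form of the cap-binding protein, rose from 3.05 and 21.7 TPM to 794 and 740.0 TPM (log2 fold change 6.32, adjusted p = 0.000986). Pabpc1l, the poly(A)-binding protein of oocytes, rose from 0.281 and 3.44 TPM to 189.5 and 188 TPM (log2 fold change 6.31, adjusted p = 0.000364). Ago2, the slicing Argonaute protein, went from 38.4 and 34.7 TPM to 18.7 and 20.4 TPM (adjusted p = 0.0186, but 0.103 without replicate 1 of 8F). For Eif4e1b and Pabpc1l the 8F libraries were close to each other, and the day 7 libraries were far apart relative to their low level.

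The meiotic arrest and resumption list held 23 genes, 18 of which rose and none of which fell, with a median of 1.44 above that of all genes. In the 4F line 19 rose, and in the 8F line between 14 and 17 did with 1 library left out. Mos, the kinase that holds the egg in its second arrest, rose from 14.8 and 11.1 TPM to 272 and 229.7 TPM (log2 fold change 4.18, adjusted p = 0.000139). Bub1b, of the spindle checkpoint, rose from 43.7 and 52.9 TPM to 482 and 437 TPM (log2 fold change 3.23, adjusted p = 9.01e-05). In the list of mitosis, which shares many of its genes with meiotic division, 29 of 34 rose and none fell, 21 of them under all 4 scalings, and between 25 and 29 rose with 1 library left out. With median-of-ratios rescaling 24 rose and 1 fell. Birc5, a part of the chromosomal passenger complex, rose from 58.1 and 86.4 TPM to 937 and 864 TPM (log2 fold change 3.65, adjusted p = 0.000114), and Nuf2, of the outer kinetochore, from 24.1 and 24.7 TPM to 142 and 143 TPM (log2 fold change 2.50, adjusted p = 0.000138). Between the lines at day 21, 10 of the 34 mitosis genes were lower and 1 was higher in the 8F line, but none and 1 were lower without replicate 1 or 2 of 8F. Of the 38 DNA replication genes, 22 rose and 2 fell, but 11 rose under all 4 scalings and as few as 8 with an 8F library left out. E2f1, which activates genes of S phase, rose from 23.9 and 29.1 TPM to 113 and 136 TPM (log2 fold change 2.19, adjusted p = 0.000344).

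Genes of meiotic prophase, the pairing and recombination stage that precedes growth, did not share these rises. Of 22 genes, 3 rose and 5 fell in the 8F line, both under all 4 scalings, against 24.2% and 13.0% of all genes tested. The median lay 0.84 below that of all genes, while 14 genes were not past the threshold. Meioc, needed to keep germ cells in meiosis, fell from 64.1 and 41.7 TPM to 2.49 and 1.44 TPM (log2 fold change -4.18, adjusted p = 0.000569). Rec8, the meiotic cohesin, was at 9.03 and 6.92 TPM at day 7 and at 0.0585 and 0 TPM in the 8F samples (adjusted p = 0.000938). Meioc and Rec8 passed the filter only through the day 7 libraries, so the filter set the direction of their change. Syce2, of the synaptonemal complex, rose from 109 and 94.0 TPM to 378 and 328 TPM (log2 fold change 1.79, adjusted p = 0.00027). With 1 library left out, between 2 and 4 genes rose and between 3 and 6 fell. The 4F line had 4 rises and 3 falls.

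The list of DNA methylation and imprint guards held 14 genes, of which 7 rose and 4 fell, in each case under all 4 scalings, and in the 4F line 8 rose and 1 fell. The 7 rises were also counted without either 8F library, but the falls were 2 without replicate 1, 1 without replicate 2 and none with the replicate block. Dnmt3l, the cofactor of methylation in growing oocytes, was at 0 and 0.705 TPM at day 7 and at 17.9 and 17.5 TPM in the 8F samples (log2 fold change 3.84, adjusted p = 0.000704). Tet3, the oxidase of methylcytosine active in the zygote, rose from 35.5 and 66.3 TPM to 484 and 552 TPM (log2 fold change 3.38, adjusted p = 0.000346). Tet2 was the largest fall, from 30.3 and 21.7 TPM to 10.2 and 8.88 TPM (log2 fold change -1.34, adjusted p = 0.00691, 0.0528 without replicate 2 of 8F), so 2 enzymes of 1 family moved in opposite directions.

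**Figure D3:**
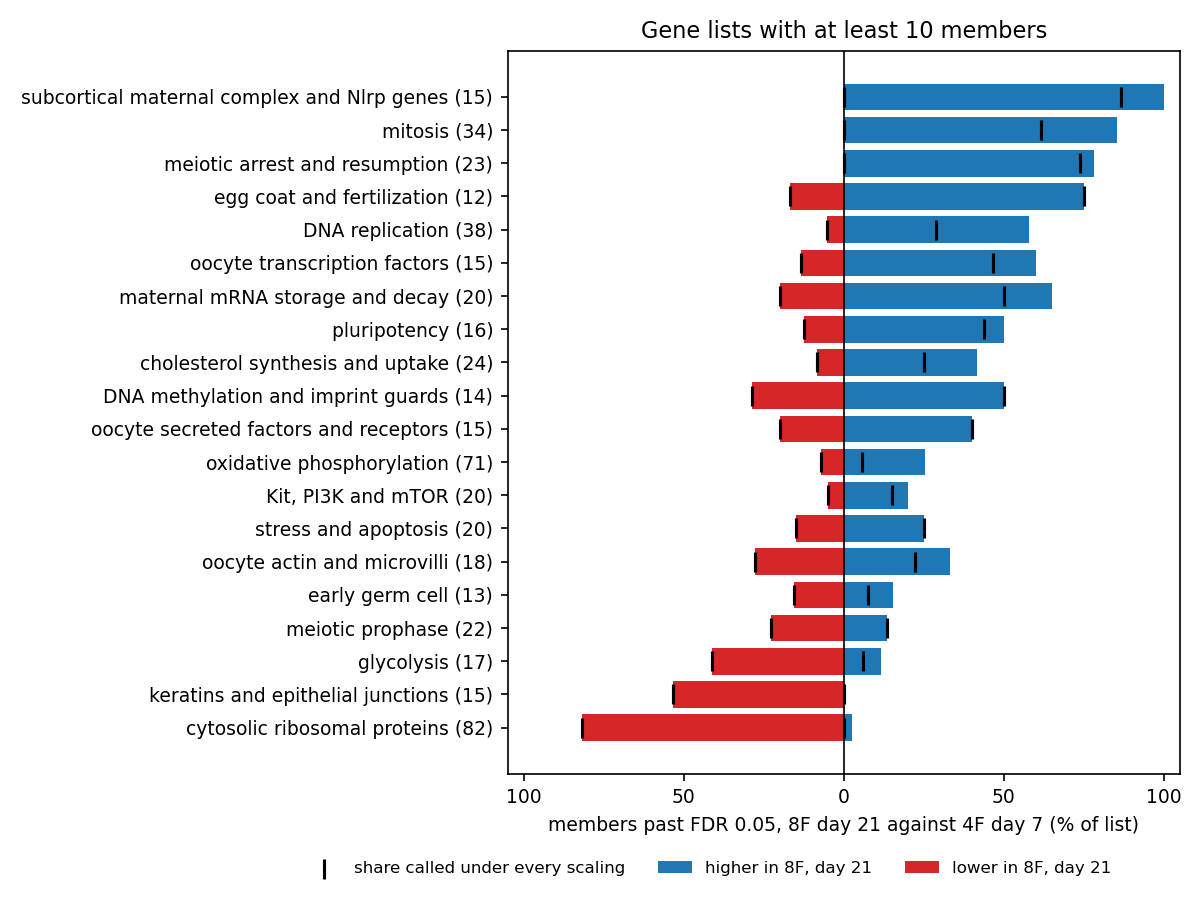
Share of each gene list (number of genes in parentheses) that was higher (blue, right) or lower (red, left) in 8F-mini-oocytes at day 21 than in 4F-mini-oocytes at day 7 (limma, FDR 0.05); black ticks mark the share that held under all 4 scalings. The subcortical maternal complex and Nlrp list stands at the top, with all 15 genes higher, and the cytosolic ribosomal proteins at the bottom, with 67 of 82 lower.

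The transcripts of the induced factors include those of the transgenes, so their values do not tell the endogenous genes apart. Nobox was at 701 and 662 TPM at day 7 and at 1009 and 1052 TPM in the 8F samples (adjusted p = 0.00821, but 0.0656 without replicate 2 of 8F, and not past the threshold under every scaling). Figla went from 504 and 429 TPM to 320.4 and 326 TPM (log2 fold change -0.52, adjusted p = 0.0164, but 0.0968 without replicate 1 of 8F). Tbpl2, an oocyte form of the TATA-binding protein, and Lhx8, a LIM homeodomain factor, were not past the threshold against day 7, at 121 and 124 TPM and at 185 and 188 TPM in the 8F samples. In the 4F line at day 21, Figla lay at 761 ± 48.1 TPM and Lhx8 at 433 ± 14.3 TPM (SD, n = 3), above all day 7 and 8F libraries. Against the 4F line, Figla was lower in the 8F line by a log2 difference of -1.23 (adjusted p = 0.00435) and Lhx8 by -1.21 (adjusted p = 0.00242), and both stayed past the threshold with every library left out in turn. Of the factors that only the 8F line was given, Stat3 was at 176 and 196 TPM in the 8F samples and at 181 ± 1.41 TPM in the 4F line, and Sub1 at 616 and 526 TPM against 552 ± 56.8 TPM. Between the lines, the log2 difference was 0.03 for Stat3 (standard error 0.093) and 0.05 for Sub1 (standard error 0.127), neither past the threshold. Dynll1, a dynein light chain, was at 128 and 187 TPM at day 7 and at 323 and 317 TPM in the 8F samples (adjusted p = 0.00845, but 0.0711 without replicate 1 of 8F), and at 217 ± 27.5 TPM in the 4F line. Sohlh1, a germ cell helix-loop-helix factor, stood at 0 in both libraries of day 7 and at 117 and 143 TPM in the 8F samples, at least 219-fold higher when day 7 is set to 3 reads per library. It also stood at 53.3 ± 9.48 TPM (SD, n = 3) in the 4F line, which was given no Sohlh1 transgene, and the lines differed by 1.28 on the log2 scale (adjusted p = 0.0201, but 0.191 without replicate 2 of 8F).

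The list of oocyte transcription factors held 15 genes, among them induced factors such as Figla and Sohlh1, so its counts rest partly on transgene transcripts. Figla fell in the 8F line and rose in the 4F line, and is counted in both. Of the 15 genes, 9 rose and 2 fell in the 8F line and 12 rose and none fell in the 4F line. With an 8F library left out, as few as 5 rose and none fell. Obox1, a homeobox gene of the oocyte, was at 0 and 14.0 TPM at day 7 and at 473 and 389.7 TPM in the 8F samples (adjusted p = 0.00405, but 0.0509 without replicate 1 of 8F). Its reads may be split with other members of the Obox cluster, so the value is uncertain. Sohlh2, the partner of Sohlh1, was at 46.2 and 50.2 TPM and then at 22.8 and 28.3 TPM (adjusted p = 0.043, but 0.23 without replicate 1 of 8F), and at 84.1 ± 22.9 TPM (SD, n = 3) in the 4F line. Between the lines, Sohlh2 was lower in the 8F line by a log2 difference of -1.65 (adjusted p = 0.0155, but 0.172 without replicate 1 of 8F). Sohlh1 was thus higher and its partner lower in the line that was given the Sohlh1 transgene.

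**Figure D4:**
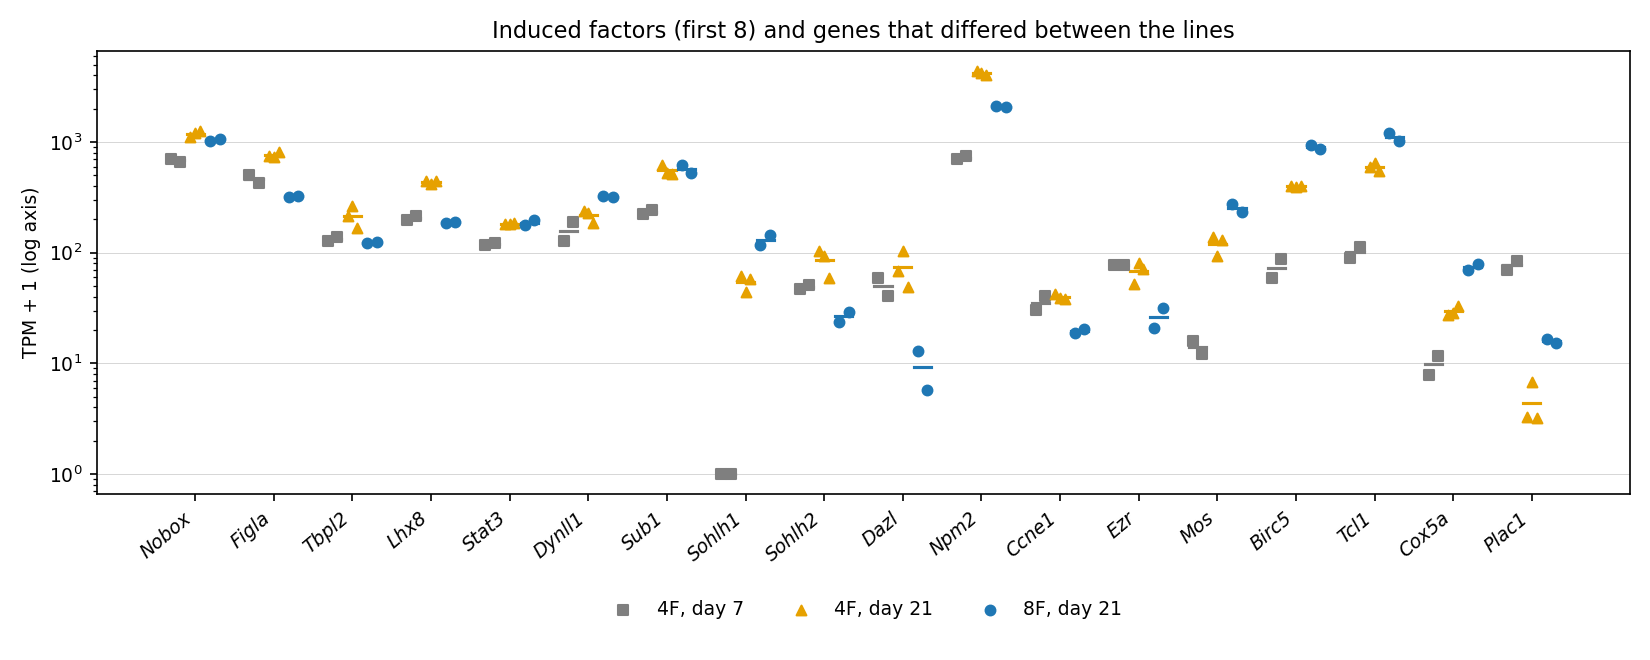
TPM + 1 (log axis) of the 8 induced factors and 10 genes that differed between the lines at day 21 (limma, FDR 0.05), in each of the 7 libraries with a line at the group mean. Figla and Lhx8 lie at 761 and 433 TPM in the 4F line at day 21 (orange triangles) and at or below the day 7 level in the 8F line (blue circles), and Sohlh1 is at 0 in the day 7 libraries.

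The largest rises and falls were taken among genes whose groups did not overlap and whose mean reached 50 TPM in the higher group. On the log2(TPM + 1) scale, which understates the change of genes at or near 0, the largest rise was that of Fgf21 (chr7:45613886-45615490), a metabolic hormone, from 3.75 and 0 TPM to 487 and 352 TPM (log2 fold change 7.57, standard error 0.646, adjusted p = 0.000428). Cpa1, a digestive carboxypeptidase, was listed at 0 at day 7 and at 159 and 177 TPM in the 8F samples, at least 385-fold higher. Tfap2e, of the AP-2 family of transcription factors, rose from 0 and 4.87 TPM to 313 and 314 TPM (log2 fold change 7.02, adjusted p = 0.000761). Mfsd2a, a lipid transporter, rose from 0 and 1.19 TPM to 109.9 and 129.7 TPM (log2 fold change 6.35, adjusted p = 0.00014). Iglj3, an immunoglobulin segment of 38 bases, was listed at 0 and then at 106 and 173 TPM, at least 6.94-fold higher at this length. Sohlh1, Obox1 and Eif4e1b complete the 8. The 4F line at day 21 was also high for each of these genes, with Fgf21 at 112 ± 9.42 TPM and Tfap2e at 215 ± 3.56 TPM (SD, n = 3), and none of the 7 other than Sohlh1 was past the threshold between the lines.

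The 8 largest falls on the log2(TPM + 1) scale included 3 genes of the Rhox cluster. H19 (chr7:142575529-142578143), an imprinted noncoding RNA, fell from 1039 and 1054 TPM to 1.33 and 0.288 TPM (log2 fold change -9.24, standard error 0.497, adjusted p = 0.000134). Rhox6, of the X-linked reproductive homeobox cluster, was at 321 and 591 TPM at day 7 and listed at 0 in both 8F libraries, at least 868-fold lower. Rhox5 went from 118 and 139.9 TPM to 0.683 and 0 TPM, and Rhox9 from 71.3 and 90.9 TPM to 0 and 0.213 TPM, so 3 genes of this cluster were at or near 0. Phlda2, an imprinted gene that limits placental growth, went from 163 and 265 TPM to 0.459 and 0.158 TPM (adjusted p = 0.00019). Fabp3, a fatty acid carrier, fell from 364 and 319 TPM to 2.29 and 0.430 TPM (log2 fold change -7.30), and Nrk, a kinase known from the placenta, from 81.8 and 126 TPM to 0.0745 and 0.0192 TPM. All 8 genes, Krt18 included, were lower in the 4F line at day 21 as well, with means of at most 4.60 TPM, and none was past the threshold between the lines.

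Krt8 and Krt18 encode the keratin pair of simple epithelia and trophoblast. Krt8 (chr15:101996698-102004482) fell from 659.5 and 863 TPM to 24.4 and 33.2 TPM, 26.4-fold by the means (log2 fold change -4.68, standard error 0.544, adjusted p = 0.00121). Krt18 fell from 436 and 658 TPM to 1.43 and 0.246 TPM (log2 fold change -8.27, adjusted p = 0.000429), and Krt19 was at 37.0 and 127 TPM and then listed at 0. Of 15 genes of the keratin and junction list, 8 fell and none rose, all 8 under all 4 scalings, and 8 fell in the 4F line. The junction genes did not all follow: Cdh1, E-cadherin, was at 116 and 149 TPM at day 7 and at 146 and 189 TPM in the 8F samples (adjusted p = 0.284). Of 12 trophoblast genes 5 passed the filter, of which 3 fell and 1 rose. Krt18 and Krt19, and in the trophoblast list Hand1 and Plac8, passed through 1 group only, so the filter set their direction. Peg10, an imprinted gene of the placenta, fell from 663 and 932 TPM to 11.4 and 9.82 TPM (log2 fold change -6.09, adjusted p = 0.00015), and Plac8 rose from 3.52 and 3.01 TPM to 67.2 and 47.9 TPM. The summed TPM of 11 markers of simple epithelium and trophoblast, of which 7 fell, was 1411.5 and 2011.6 at day 7, between 294.93 and 346.6 in the 4F line at day 21 and 219.57 and 267.33 in the 8F line. In pools of cells, fewer cells of a type and less RNA per cell cannot be told apart. Of the trophoblast markers, Cdx2 and Ascl2 were under 1 TPM in all 7 libraries, whereas Hand1 was at 12.0 and 63.6 TPM at day 7, Gata3 at 8.30 and 10.6 TPM and Krt7 at 24.3 and 25.1 TPM. These 3 were under 1 TPM in both 8F libraries (adjusted p = 0.00357 for Hand1, 0.00135 for Gata3 and 0.000335 for Krt7), and the part of other cells in these falls was not tested.

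Few genes of the other lists of non-oocyte cells passed the filter. These were 2 of 15 fibroblast and mesenchyme genes, 2 of 11 endoderm genes and 5 of 10 neural genes. Fn1 passed only through the day 7 libraries, so the filter set its fall. Of 2 fibroblast and mesenchyme genes, both fell, but 1 did with either 8F library left out. Fn1, which encodes fibronectin, fell from 56.5 and 47.3 TPM to 2.81 and 3.84 TPM (log2 fold change -3.62, adjusted p = 0.000358), and Snai2, a repressor of epithelial genes, was at 22.8 and 35.2 TPM and then at 6.41 and 8.93 TPM (adjusted p = 0.0175, but 0.122 without replicate 1 of 8F). Of 2 endoderm genes, Lamb1, a laminin chain, rose from 70.3 and 54.2 TPM to 417 and 480.3 TPM, and Dab2, an endocytic adaptor, fell from 52.8 and 59.9 TPM to 7.74 and 5.18 TPM. Of 5 neural genes 2 rose and 2 fell, with 1 rise and 2 falls under all 4 scalings, and without replicate 1 of 8F 1 rose and none fell. Tubb3, a tubulin of neurons, rose from 6.68 and 5.74 TPM to 291 and 307 TPM (log2 fold change 5.38, adjusted p = 2.13e-05), while Nes, an intermediate filament of neural progenitors, fell from 150.1 and 121 TPM to 44.8 and 48.1 TPM. Tubb3 stood at 208 ± 17.6 TPM (SD, n = 3) in the 4F line, and the 5 neural markers summed to 163.74 and 132.43 TPM at day 7 and to 349.46 and 367.59 TPM in the 8F line. Of the other markers, Sox1 was under 1 TPM in all 7 libraries, Pax6 went from 0.392 and 0 TPM to 3.96 and 2.74 TPM (adjusted p = 0.0204), and Map2 from 6.61 and 5.81 TPM to 9.34 and 9.81 TPM (adjusted p = 0.159). The part of other cells in these values was not tested.

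Gata4, a transcription factor of granulosa cells, heart and endoderm, rose from 3.07 and 1.57 TPM to 95.4 and 87.8 TPM, 39.5-fold by the means (log2 fold change 4.84, standard error 0.283, adjusted p = 0.00015). It stood at 40.5 ± 7.28 TPM (SD, n = 3) in the 4F line, and the lines differed by 1.17 on the log2 scale (adjusted p = 0.0423, but 0.327 without replicate 1 of 8F). The other granulosa cell markers were low: of 8 markers, Inha and Amhr2 were at 0 in both 8F libraries, Amh, Inha, Wt1 and Amhr2 were under 1 TPM in all 7 libraries, and Foxl2 was at 2.69 and 1.5 TPM in the 8F samples. The endoderm markers summed to 1.31 and 2.73 TPM in the 8F samples and the fibroblast markers to 1.36 and 1.61 TPM. The 9 oocyte markers, of which 8 rose, summed to 9984.1 and 12663 TPM at day 7, to between 39843 and 44277 TPM in the 4F line at day 21 and to 31112 and 30655 TPM in the 8F line. Ddx4, the germ cell helicase, was the marker that did not rise in the 8F line, at 104 and 129 TPM and then at 107 and 111 TPM (adjusted p = 0.721).

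The genes of the cytosolic ribosome moved together, in the opposite direction to most of the growth genes. Of 82 genes, 67 fell in the 8F line, all of them under all 4 scalings, while 2 rose on the TPM scale and none under all 4. The summed TPM of the 82 genes was 43696.9 and 40914 at day 7 and 20541.5 and 18557.4 in the 8F libraries, and their median log2 fold change lay 1.34 below that of all genes. Rpl37 fell from 1073 and 1449 TPM to 239 and 207 TPM (log2 fold change -2.48, adjusted p = 0.000272), and Rps6, the ribosomal protein phosphorylated downstream of mTOR, from 663 and 687 TPM to 366 and 357 TPM (log2 fold change -0.90, adjusted p = 0.00543, but 0.0529 without replicate 2 of 8F). The 2 that rose were Rps27l and Rpl36al, from 38.9 and 52.1 TPM to 91.3 and 86.1 TPM for Rpl36al. Processed copies of ribosomal genes can take or lose reads under unique mapping. Without replicate 2 of 8F, 39 genes fell and 1 rose, and without replicate 1, 47 fell.

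The fall was smaller in the 8F line than in the 4F line. In the 4F line 77 of the 82 genes fell, and the summed TPM was between 13407.5 and 14843.4. Between the lines at day 21, 35 of the 82 genes were higher and 2 lower in the 8F line, where 8.37% of all genes tested were past the threshold, 3.95% higher and 4.41% lower. Between 34 and 44 genes were higher under the other 3 scalings, but 5 and 8 were with replicate 1 or 2 of 8F left out. Rps6, for example, was at 238 ± 36.4 TPM (SD, n = 3) in the 4F line, a log2 difference of 0.61 (adjusted p = 0.0492), which missed the threshold with any library left out. The day 7 libraries lay above the 8F libraries, and these above the 4F libraries at day 21, in the median over the 82 genes.

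**Figure D5:**
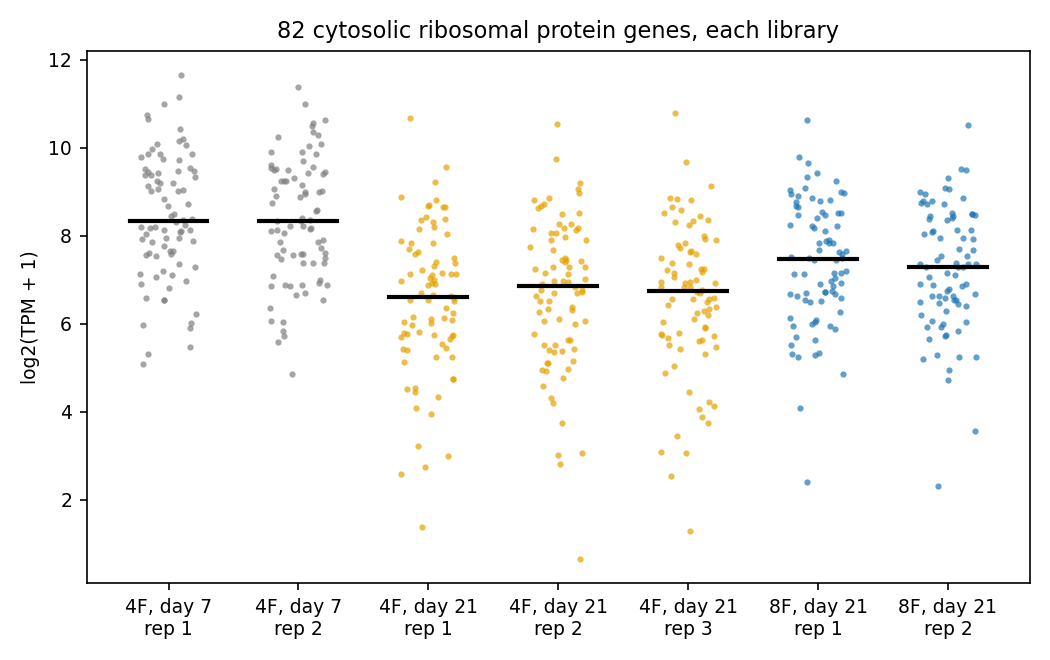
Log2(TPM + 1) of the 82 cytosolic ribosomal protein genes in each library, with the median as a black bar. The medians are 8.34 and 8.33 at day 7, 6.61, 6.86 and 6.74 in the 4F line at day 21, and 7.47 and 7.29 in the 8F line.

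Oxidative phosphorylation genes, which encode the respiratory chain and ATP synthase, did not move as one. Of 71 genes, 18 rose and 5 fell on the TPM scale, against 24.2% and 13.0% of all genes tested. But 9 rose and 9 fell when rescaled by the median of ratios, and 4 rose and 15 fell with quantile normalization. The median lay 0.03 above that of all genes. Cox5a, a subunit of cytochrome c oxidase, rose from 6.85 and 10.8 TPM to 68.0 and 77.5 TPM (log2 fold change 2.94, adjusted p = 0.000367), and Ndufb9, of complex I, fell from 193 and 166 TPM to 93.0 and 85.3 TPM (adjusted p = 0.00371). Without replicate 1 of 8F, 7 genes rose and 3 fell, and without replicate 2, 8 rose and 2 fell.

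Of 13 genes of the early germ cell list, 2 rose and 2 fell in the 8F line, where 37.2% of all genes were past the threshold, with 1 rise and 2 falls under all 4 scalings. The 4F line had 5 rises and no fall on the TPM scale, but 3 rises and 2 falls after median-of-ratios rescaling, 2 and 2 with quantile normalization, and 2 and 3 with voom. Tdrd5, of the piRNA pathway, rose from 106 and 125 TPM to 366 and 391 TPM (log2 fold change 1.71, adjusted p = 0.000228). Mov10l1, the helicase of piRNA biogenesis, was at 26.6 and 24.7 TPM at day 7 and at 5.37 and 8.40 TPM in the 8F samples (adjusted p = 0.0137, but 0.107 with 1 library left out), with 22.6 ± 8.01 TPM (SD, n = 3) in the 4F line. With an 8F library left out, as few as 0 genes of the list fell.

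Over the 10655 genes, 4015 rose and 1590 fell in the 4F line at day 21 against day 7. In this comparison the pool size changes with the day, and their parts cannot be told apart. Of all genes tested, 40.6% were past the threshold, 25.3% higher and 15.3% lower. The majority turned with the scaling here too, with 2959 rises and 2368 falls after median-of-ratios rescaling and 2342 rises and 3262 falls with voom. Between the lines at day 21, 333 genes were higher and 626 lower in the 8F line, 959 in all or 9.0%, against the 8.37% of all genes tested. This count rested on both 8F libraries: it was 53 without replicate 1 and 77 without replicate 2 of 8F, and 427 to 491 with a 4F library of day 21 left out. Voom on the estimated reads gave 991 higher and 602 lower, so the side on which most differences lay depended on the scaling. Choosing genes by a difference between the lines favours opposite signs against day 7, and their share over all genes tested was not counted. Of the 959 genes, 250 had such signs and a change against day 7 past the threshold in either line or both. Of these 250 genes, 65 were higher and 185 lower in the 8F line.

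Dazl, a germ cell RNA-binding protein that activates translation of stored mRNA, was 1 of them. It was at 58.5 and 39.8 TPM at day 7, at 72.7 ± 28.0 TPM (SD, n = 3) in the 4F line and at 11.9 and 4.77 TPM in the 8F line, below every other library. The log2 difference between the lines was -3.02 (adjusted p = 0.0139, but 0.112 without replicate 2 of 8F). Ccne1, the S phase cyclin, was at 29.1 and 39.4 TPM at day 7, at 38.8 ± 2.10 TPM (SD, n = 3) in the 4F line and at 17.7 and 19.5 TPM in the 8F line (log2 difference -1.02, adjusted p = 0.0211, but 0.175 without replicate 1 of 8F). Ezr, which links actin to the membrane of microvilli and whose change had the same sign in both lines, was at 76.8 and 76.1 TPM at day 7, at 66.7 ± 14.7 TPM in the 4F line and at 19.8 and 30.7 TPM in the 8F line (log2 difference -1.37, adjusted p = 0.0245). Without replicate 1 of 8F its adjusted p was 0.213. Dazl, Ccne1 and Ezr lay lower in both 8F libraries than in all other libraries.

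Of the 250 genes with opposite signs, the 5 with the largest difference upward included 3 histone genes of the replication-dependent clusters. H2ac18 was at 59.9 and 56.7 TPM at day 7, at 23.8 ± 3.74 TPM (SD, n = 3) in the 4F line and at 896 and 522 TPM in the 8F line, a log2 difference of 4.80 (adjusted p = 0.000793). H4c1 was at 199 TPM in both day 7 libraries, at 28.1 ± 13.5 TPM in the 4F line and at 255 and 249.6 TPM in the 8F line (log2 difference 3.26, adjusted p = 0.00958). H3c6 was at 46.6 and 79.5 TPM, at 5.03 ± 5.57 TPM and at 75.7 and 77.0 TPM in the same order (log2 difference 4.30, adjusted p = 0.0424). H2ac18 was above its day 7 level in the 8F line, whereas H3c6 and H4c1 lay near theirs and were low only in the 4F libraries of day 21. Histone genes have near-identical copies that share reads, so these values are uncertain. H2ac18 stayed past the threshold with every library left out in turn, and H3c6 and H4c1 had adjusted p of 0.323 and 0.118 without replicate 1 of 8F. G0s2, an inhibitor of fat breakdown, was at 11.6 and 9.75 TPM in the 8F line and at 0.0881 ± 0.153 TPM in the 4F line (adjusted p = 0.0074), and Igfbp7, a secreted binding protein, at 13.8 and 7.61 TPM against 0.131 ± 0.228 TPM (adjusted p = 0.0234). Without replicate 1 of 8F their adjusted p was 0.0758 and 0.207.

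Among the largest differences downward of the same kind, Rprl2, an RNase P RNA-like gene, was at 12.5 and 5.83 TPM at day 7, at 249 ± 90.5 TPM (SD, n = 3) in the 4F line and at 0.592 and 1.22 TPM in the 8F line. Both 8F values of Rprl2 lie below the 1.83 TPM that 3 reads amount to at its length of 290 bases, so the size of its difference is uncertain. Cox6c2, a processed copy of a cytochrome c oxidase gene, was at 94.3 and 50.6 TPM at day 7, at 248 ± 34.9 TPM in the 4F line and at 26.7 and 22.6 TPM in the 8F line. AC124742.1, which had no entry in the annotation used, was at 121 and 97.2 TPM, at 245 ± 43.4 TPM and at 29.6 and 36.3 TPM in the same order. All 3 stayed past the threshold with every library left out, with log2 differences between the lines of -6.98, -3.28 and -2.85. Rprl2 and Cox6c2 resemble other genes with which reads can be shared, and their values are uncertain.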

How the data were processed

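RNA-seq libraries of 4F-mini-oocytes at day 7 (n = 2) and day 21 (n = 3) and of 8F-mini-oocytes at day 21 (n = 2) were analysed. The authors prepared SMART-seq stranded libraries, used Trim Galore! for trimming, HISAT2 for alignment to mm10 and bedtools to take out rRNA, kept uniquely mapped reads and counted them with featureCounts with fractional assignment to overlapping genes. No strand option of the counting is given in the sources used here, so overlapping antisense genes may share reads. The deposited values used here are TPM, scaled by the authors to library totals. TPM carries no counts, so limma 3.58.1 (R 4.3.3) was run on log2(TPM + 1) in place of the count model that the study used, with a trended prior, 3 groups and genes that reached 1 TPM in 2 or more of the 7 libraries, at an FDR of 0.05 (Benjamini-Hochberg). Reads per library were estimated from low TPM values, of which 83.2% to 86.0% were whole reads within 0.02 of a read; intervals and limits cover counting error only. The test was checked on simulated data in which all libraries had the same spread and means taken from day 7. The check does not cover groups that differ in spread, as the day 7 and 8F libraries did.

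Genes were named by a rule: 9 growth genes, the 8 factors, Gata4, Gdf9 and Krt8, the 8 largest rises and falls without overlap and with at least 50 TPM in the higher group, up to 4 genes from each of 25 lists, and 5 genes in each direction that differed between the lines with opposite signs, of which 1 is not reported here. The genes and lists were chosen with earlier results of these data known. Nlrp7, Meiosin and Atp5f1 of the lists matched no symbol. Alternatives were other filters, pseudocounts of 0.1 and 5, median-of-ratios and quantile scaling, voom on estimated reads, no trend, array weights, only the libraries compared, each library left out and a replicate block. Voom with median-of-ratios library sizes was added after seeing the data.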

Additional observations from a re-analysis of the deposited data

Results flagged for a closer look

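Of the genes named by the rule and reported here, 26 differed at day 21 between the 8F and the 4F line (limma, adjusted p under an FDR of 0.05), which is the test of the difference between the changes of both lines against day 7. In the 8F line 16 were higher and 10 lower, and 6 of the 26 stayed past the threshold with every library left out in turn: Figla, Lhx8, H2ac18, Rprl2, Cox6c2 and AC124742.1. The log2 differences given are 8F minus 4F.

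Higher in the 8F line were the oocyte genes Bmp15 by 0.59, Mos by 1.08 and Tcl1, an activator of Akt signalling, by 0.90, the factor Sohlh1 by 1.28, Gata4 by 1.17, Plac1 by 1.94, the division gene Birc5 by 1.18, Cox5a by 1.32, the ribosomal genes Rpl36al by 0.84 and Rps6 by 0.61, and Tubb3 by 0.53. Also higher were the histone genes H2ac18 by 4.80, H3c6 by 4.30 and H4c1 by 3.26, G0s2 by 3.43 and Igfbp7 by 3.34.

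Lower in the 8F line were Npm2 at -1.01, the factors Figla at -1.23 and Lhx8 at -1.21, Sohlh2 at -1.65, Dazl at -3.02, Ccne1 at -1.02 and Ezr at -1.37. Also lower were Rprl2 at -6.98, Cox6c2 at -3.28 and AC124742.1 at -2.85.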

How the results depend on the processing

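None of the 110 named genes past the threshold between 8F at day 21 and day 7 changed direction under an alternative, 75 stayed past it with every library left out in turn, 83 did with the replicate block, and between 102 and 110 did under the other filters, pseudocounts and scalings. The replicate block left 4360 of 8103 genes past the threshold over all genes tested and 3082 of 5239 among the genes kept, and took the 4F change from 5605 and the difference between the lines from 959 to 0, with 4615 and 2199 at an unadjusted p under 0.05. Replicates share only a number: the differences between replicates 1 and 2 of day 7 and 8F correlated at -0.009. With 1 library left out, the counts ranged from 2829 to 5292 for 8F against day 7 and from 53 to 1141 between the lines, and over all genes from 4089 to 8281, with 4215 and 4089 without an 8F library. Between the lines, 274 genes passed without the trend, 1981 with array weights, 1593 with voom and 1558 with voom on median-of-ratios sizes. The cause of these moves was not tested.

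Values not past the threshold turned direction with scaling or 1 library. Against day 7 in the 8F line, Dppa3 was at 0.35 after quantile normalization. Foxo3 was at -0.024 after median-of-ratios, -0.20 after quantile, -0.0906 with voom and -0.0503 with voom on median-of-ratios sizes. H3c6 was at -0.0001, -0.21, -0.11 and -0.0613 in that order, and between -0.0566 without day 7 replicate 1 and 0.7001 without day 7 replicate 2. G0s2 was at -0.19 after median-of-ratios, -0.31 with voom, -0.26 with voom on median-of-ratios sizes, -0.0054 without 8F replicate 1, and between -0.22 and 0.4368 without day 7 replicate 1 or 2. H4c1 was at -0.16 after quantile, -0.0422 with voom and -0.0033 with voom on median-of-ratios sizes. In the 4F line, Stat3 was at -0.0167 after quantile, and Pkm at -0.22 after quantile and -0.14 with voom, although both were past the threshold on the TPM scale.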

Other observations

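Glycolysis genes fell more often than they rose in the 8F line: of 17, 7 fell and 2 rose, with 7 falls and 1 rise under all 4 scalings and a median 0.68 below that of all genes, but as few as 2 fell with an 8F library left out. The lactate dehydrogenase genes moved apart. Ldha, the form that predominates in muscle, fell from 28.9 and 42.5 TPM at day 7 to 1.19 and 0.588 TPM in the 8F libraries (log2 fold change -4.27, limma adjusted p = 0.00194). Ldhb, the form that predominates in heart and is abundant in oocytes, rose from 2557 and 3064 TPM to 10316 and 10278 TPM (log2 fold change 1.88, limma adjusted p = 0.000689). Of 24 genes of cholesterol synthesis and uptake, 10 rose and 2 fell, and as few as 4 rose with an 8F library left out. Srebf2, which activates this pathway, was at 23.3 and 12.0 TPM and then at 51.2 and 56.8 TPM (limma adjusted p = 0.00695, but 0.0684 with 1 library left out). In the list of Kit, PI3K and mTOR, 4 of 20 genes rose and 1 fell, against 24.2% and 13.0% of all genes tested, and as few as 2 rose without an 8F library.

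Of 20 stress and apoptosis genes, 5 rose and 3 fell, near the 24.2% and 13.0% of all genes tested, in each case under all 4 scalings, and as few as 1 fell with an 8F library left out. The leading rises were targets of the amino acid response. Chac1, which degrades glutathione, rose from 0.778 and 1.75 TPM to 48.1 and 57.5 TPM (log2 fold change 4.60, limma adjusted p = 0.00247), and Asns, asparagine synthetase, from 10.5 and 12.5 TPM to 106 and 81.9 TPM (log2 fold change 2.92, limma adjusted p = 0.000921). In the 4F line at day 21 they stood at 14.5 ± 9.33 TPM and 43.3 ± 15.2 TPM (SD, n = 3). Of 16 pluripotency genes, 8 rose and 2 fell, and as few as 4 rose with an 8F library left out. Sall4, also a gene of oocytes, rose from 30.0 and 26.9 TPM to 119 and 141 TPM. Of 5 pluripotent cell markers, 2 rose and 1 fell. Pou5f1 rose from 24.4 and 30.1 TPM to 73.7 and 102.5 TPM (limma adjusted p = 0.00635). Esrrb rose from 3.92 and 12.3 TPM to 27.6 and 42.4 TPM (limma adjusted p = 0.0159). Zfp42 fell from 20.6 and 21.9 TPM to 4.93 and 4.42 TPM. Nanog was under 1 TPM in all 7 libraries and listed at 0 in both 8F libraries. The 5 markers summed to 48.9 and 65.2 TPM at day 7 and to 107.7 and 150.9 TPM in the 8F line. Of 18 genes of oocyte actin and microvilli, 6 rose and 5 fell, and as few as 4 rose and 3 fell with an 8F library left out. Beside these counts stand 24.2% rises and 13.0% falls over all genes tested. Fmn2, which nucleates the actin that moves the oocyte spindle, rose from 18.6 and 19.4 TPM to 71.8 and 73.7 TPM (log2 fold change 1.88, limma adjusted p = 0.00103).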
